A study of Mus musculus with 2 samples.

Results

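The 37 genes described here encode transcription factors that mark the lineages of liver cells. They were taken as a named list, and rows for 37 of 37 were found among the 22508 genes of the count table. Their levels were read in cells of liver from C57BL/6 mice at 8 weeks of age, wild type by their sample names (WT), with no treatment beyond the enzymatic dissociation and Percoll gradients used to free and enrich the cells. The 2 samples, WT replicate 1 and WT replicate 2, form 1 group, and the labels do not say whether they came from separate animals, from pooled animals or from which cell fractions of the gradient. RNA was read by droplet-based 3' sequencing, in which each captured molecule counts as 1 UMI (unique molecular identifier).

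Transcription factors bind DNA at regulatory regions and set which genes a cell reads, and sets of them hold a cell type's identity. In liver, hepatic stellate cells store vitamin A and surround the sinusoids, the mesothelium covers the organ, portal fibroblasts lie around portal tracts, and sinusoidal endothelial cells form a fenestrated capillary bed between the portal and central veins. Factors of the LIM homeodomain, bHLH, GATA and forkhead families are known from stellate and mesothelial development, SOXF, ETS and MAF factors from endothelium, HNF4A and FOXA factors from hepatocytes, and T-box and RUNX factors from lymphocytes.

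Cells were given to classes by UMIs of marker genes outside the list, and classes are called "-like" since their names rest on those markers. Replicate 1 had 7362 cells and 40645060 UMIs (503 to 66125 per cell) and replicate 2 had 2341 cells and 11867207 UMIs (1263 to 13401 per cell). The libraries held different cells: 2311 of 2341 cells of replicate 2 (98.7%) were stellate-like, with 8 such cells in replicate 1. The other 16 of the 17 compared classes came from replicate 1, from 2696 sinusoidal endothelial-like and 2489 Kupffer-like cells to 22 monocyte-like cells, so stellate identity and library cannot be told apart. No condition was compared and no class had 20 cells in both libraries, so no test was made. Values are CPM, the UMIs of a gene in a class per 1000000 UMIs of that class, with 95% intervals in parentheses that cover counting error only. Haemoglobin genes stood among the leading genes of the sinusoidal class, and 5 barcodes occurred in both libraries. In the 322 cells of replicate 1 that passed no gate and entered no comparison, 23 of 37 members had more than 3 UMIs, beside 51% of all genes.

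Each of the 37 factors was set against itself over the classes. 20 of 37 reached at least 2-fold more CPM in their highest class than in the next, as did 25.7% of the 17098 genes with at least 20 UMIs over these classes. At 10 CPM or more in at most 2 classes there were 11 of 37 beside 34.5% of those genes, and in at least 4 classes 17 of 37 beside 60.2%. Fli1, an ETS factor of endothelial and blood cells, reached 10 CPM in 13 classes, from 1 UMI among neutrophil-like cells to 3304 in sinusoidal endothelial-like cells, and Maf, a bZIP factor, reached 10 CPM in 15. By highest class the list divided into 8 factors of portal and arterial endothelial-like cells, 4 each of stellate-like cells and of cholangiocyte-like cells, and 3 of sinusoidal endothelial-like cells. A further 2 each were highest in mesothelial-, central vein endothelial-, lymphatic endothelial-, hepatocyte-, Kupffer-, T-, natural killer and ILC1- and B-like cells, and 1 each in monocyte-like and plasmacytoid dendritic-like cells. For 13 of the 37 the interval of the highest over the next class includes equal levels: Gata2, Gata3, Gata4, Gata6, Sox7, Sox18, Meis1, Meis2, Prox1, Tox2, Spi1, Runx3 and Erg. Their highest class is therefore not settled by these counts.

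**Figure D1:**
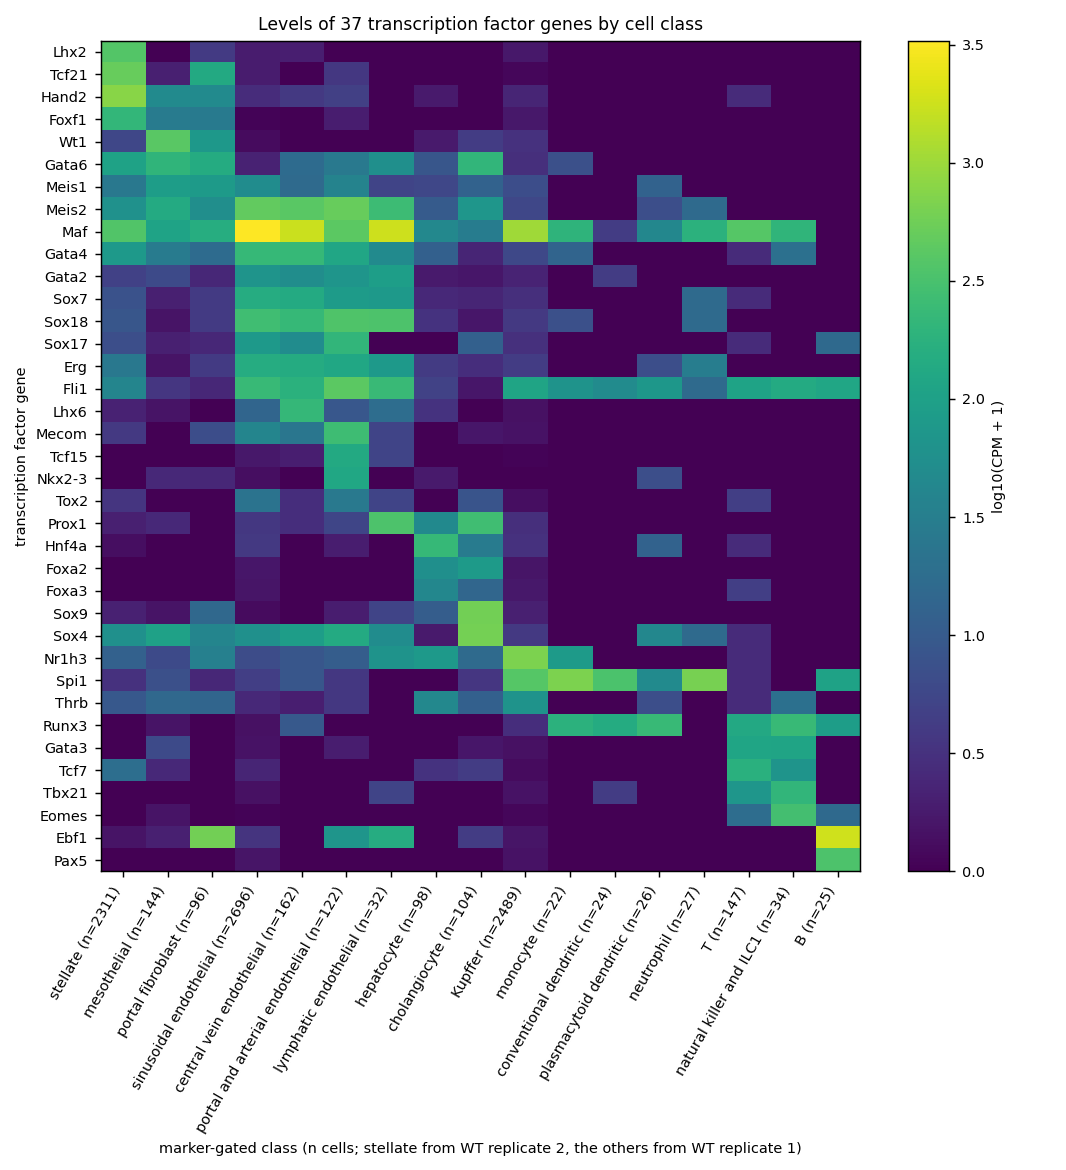
Colour gives log10(CPM + 1) of the 37 transcription factor genes (rows) in the 17 compared classes (columns, with n cells). Blocks of factors line up with mesenchymal, endothelial, epithelial, myeloid and lymphoid classes, while Maf reaches 10 CPM in 15 classes and Fli1 in 13.

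Stellate-like cells held 4 factors at levels that no other compared class reached: Lhx2, Tcf21, Hand2 and Foxf1. Smooth muscle-like cells, too few to be compared, had Foxf1 near the stellate-like level, as given below. Lhx2, a LIM homeodomain factor known from stellate cell development (chromosome 2, 38339281 to 38369733, plus strand, GRCm38), had 4390 UMIs or 375 CPM (364 to 386) in stellate-like cells of replicate 2. It had 2.90 CPM (0.352 to 10.5) in portal fibroblast-like cells, 0.847 CPM (0.438 to 1.48) in sinusoidal endothelial-like cells, and 0 UMIs in mesothelial-like cells, where a count of 0 allows 1.55 CPM. The stellate-like level was thus 129-fold (35.7 to 1066) above that of the next class. The 8 stellate-like cells of replicate 1 gave 6 UMIs or 212 CPM (77.8 to 461), an interval that reaches the level in replicate 2.

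Tcf21, a bHLH factor of mesenchymal progenitors (chromosome 10, 22817281 to 22820174, minus strand), had 502 CPM (489 to 515) in stellate-like cells of replicate 2 and 353 CPM (169 to 650) in those of replicate 1. It was the member that stellate-like cells shared most narrowly with portal fibroblast-like cells, which had 135 CPM (109 to 165), 3.72-fold (3.03 to 4.61) lower. Mesothelial-like cells had 1.04 CPM (0.125 to 3.74). Hand2, a bHLH factor first known from heart and limb (chromosome 8, 57320983 to 57324633, plus strand), had 776 CPM (760 to 792) in stellate-like cells of replicate 2 and 707 CPM (432 to 1091) in those of replicate 1. Portal fibroblast-like and mesothelial-like cells followed at 47.9 CPM (33.0 to 67.3) and 47.6 CPM (38.4 to 58.4), which did not differ beyond their counting error. Foxf1, a forkhead factor of visceral mesoderm (chromosome 8, 121084386 to 121088144, plus strand), had 213 CPM (204 to 221) in stellate-like cells of replicate 2 and 70.7 CPM (8.56 to 255) in those of replicate 1, then 27.9 CPM (21.0 to 36.5) in mesothelial-like and 27.6 CPM (16.6 to 43.1) in portal fibroblast-like cells. In sinusoidal endothelial-like cells it had 1 UMI, or 0.0706 CPM (0.00179 to 0.393).

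These factors were seen together in single cells. The share expected if each gene were seen independently of the others was not computed, so the shares below only describe joint detection. Of 2311 stellate-like cells 979 (42.4%) had UMIs of 4 of 4 of Lhx2, Tcf21, Hand2 and Foxf1, 871 (37.7%) had 3, and 9 (0.389%) had none. Of 2696 sinusoidal endothelial-like cells of similar depth (median 4899 against 5009 UMIs) 2654 (98.4%) had none and 0 had 4. Shares rest on depth: with each cell thinned to 1000 UMIs, 23 stellate-like cells (0.995%) still showed 4 of 4 and 429 (18.6%) showed none, against 2609 of 2616 sinusoidal endothelial-like cells (99.7%) with none. By gene, a Hand2 UMI was seen in 93.1% of stellate-like cells (51.3% after thinning, 49.2 to 53.3) and 0.779% of sinusoidal endothelial-like cells. Tcf21 was seen in 83.1% (36.6% after thinning, 34.6 to 38.6) against 0.445%. Lhx2 was seen in 77.7% (29.3% after thinning, 27.4 to 31.2) against 0.445%.

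The sequences just before the starts of the stellate-like factors are shown because their genes were read together in the same cells. They come from RefSeq promoters (GRCm38.p6), 5' to 3' on the gene's strand, cut to the part upstream of the start and outside coding exons. Capitals mark matches, on either strand, to 5 short motifs: AGATAA of GATA factors, CCGGAAGT of ETS factors, ACAATG of SOX factors, CAGATG of TCF21 and HAND2, and TAATTA of LIM homeodomain factors. The Lhx2 stretch is chr2:38339031-38339280, the Tcf21 stretch chr10:22820175-22820393 (minus strand) and the Hand2 stretch chr8:57320733-57320982.
Lhx2: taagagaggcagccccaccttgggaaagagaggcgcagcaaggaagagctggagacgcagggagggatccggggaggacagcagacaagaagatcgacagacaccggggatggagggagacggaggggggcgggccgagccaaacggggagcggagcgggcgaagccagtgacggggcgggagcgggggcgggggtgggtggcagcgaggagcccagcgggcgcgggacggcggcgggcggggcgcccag
Tcf21: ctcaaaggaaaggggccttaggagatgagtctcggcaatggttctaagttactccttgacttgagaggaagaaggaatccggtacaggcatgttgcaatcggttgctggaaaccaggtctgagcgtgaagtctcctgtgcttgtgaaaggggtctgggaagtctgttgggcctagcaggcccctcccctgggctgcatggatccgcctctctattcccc
Hand2: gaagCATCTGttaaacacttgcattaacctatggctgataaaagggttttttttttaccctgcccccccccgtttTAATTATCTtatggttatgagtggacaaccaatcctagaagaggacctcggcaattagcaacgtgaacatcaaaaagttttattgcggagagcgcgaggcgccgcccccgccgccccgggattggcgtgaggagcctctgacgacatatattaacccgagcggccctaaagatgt
The Hand2 stretch held CAGATG (read here as its reverse complement), and TAATTA and AGATAA, which overlap there. The stretches of Lhx2 (250 bases, 72.8% G and C) and Tcf21 (219 bases, 54.8% G and C) held none of the 5. The Tcf21 match to AGATAA counted below lies in its 250-base window, but not wholly within the stretch shown. Over the 250-base windows of 27025 RefSeq promoters, AGATAA was in 10.3%, CAGATG in 14.5%, ACAATG in 11.0%, TAATTA in 4.90% and CCGGAAGT in 2.93%. Of the 25 members with an entry, 3 held AGATAA (Hnf4a, Hand2 and Tcf21), 3 CAGATG (Prox1, Mecom and Hand2), 2 TAATTA (Hand2 and Erg), 1 ACAATG and 1 CCGGAAGT (Meis1 for both). A match describes letters in the window and is not a binding site.

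Hand2 and Foxf1 each have a noncoding gene beside them on the opposite strand, and both of these were read in the same class. Hand2os1, whose start lies 3250 bases from that of Hand2 and whose gene overlaps it, had 7509 UMIs or 641 CPM (627 to 656) in stellate-like cells, 88.5 CPM in portal fibroblast-like and 16.6 CPM in mesothelial-like cells. Fendrr, 1276 bases from the start of Foxf1 with no overlap, had 1904 UMIs or 163 CPM (155 to 170) in stellate-like cells, 13.1 CPM in portal fibroblast-like cells and 9.83 CPM in mesothelial-like cells. In sinusoidal endothelial-like cells Hand2os1 had 0.776 CPM and Fendrr had no UMI. Wt1os, the antisense gene 19 bases from the start of Wt1, had 21 UMIs or 10.9 CPM (6.73 to 16.6) in mesothelial-like cells and 1 UMI elsewhere. Of 13 noncoding genes starting within 5000 bases of a member 9 had at least 20 UMIs, and 6 of these were highest in the same class as their member. The other 3 were Prox1os, highest in hepatocyte-like cells at 21.7 CPM (14.4 to 31.3), and Gm15655 beside Maf and 2700033N17Rik beside Meis2, both highest in lymphatic endothelial-like cells. Gm15655 and 2700033N17Rik rest on 7 and 6 UMIs in lymphatic cells. Prox1os had 28 UMIs in hepatocyte-like cells and 1 UMI in lymphatic cells (4.25 CPM, 0.108 to 23.7). The intervals of these highest classes overlap those of other classes, so their order is not settled. Among the 6 that matched, Gm37587 beside Sox17 had 2.69 CPM (0.554 to 7.85, from 3 UMIs) in portal and arterial and 2.40 CPM (1.66 to 3.35) in sinusoidal cells. 1010001N08Rik beside Gata6 had 12.9 CPM (7.86 to 19.9) in cholangiocyte-like and 9.32 CPM (5.52 to 14.7) in mesothelial-like cells. These intervals overlap, so these matches are not settled either. No share of matches over other gene pairs was computed. Whether the counting used strand is not given in the sources used here, so reads of overlapping pairs may have been counted for either gene.

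A factor was called for a mesenchymal class if its CPM there was at least 2-fold above the mean of the 14 classes outside the mesenchymal set, with at least 20 UMIs over the sides and more than 3 in the class. By this rule 7 of 37 were called in stellate-like cells, where 16.4% of all genes tested were called, 5 of 37 in mesothelial-like cells, beside 15.6% of all genes, and 7 of 37 in portal fibroblast-like cells, beside 13%. The filter on UMIs was passed by 37, 36 and 37 of the 37. The members' shares for these classes were near those of all genes. For calls shared by all 3 classes the background was 4.21% of genes, and 5 of 37 members met the rule: Gata6, Foxf1, Wt1, Hand2 and Meis1. Tcf21 was called in stellate- and portal fibroblast-like cells, Lhx2 in stellate-like cells, and Ebf1 in portal fibroblast-like cells. Of the shared factors Foxf1 and Hand2 were highest in stellate-like cells, with the other 2 classes level, and Gata6, Wt1 and Meis1 were lowest there.

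Gata6, a zinc finger factor of endoderm and mesothelium, had 197 CPM (177 to 217) in mesothelial-like, 147 CPM (119 to 178) in portal fibroblast-like and 105 CPM (99.0 to 111) in stellate-like cells, so it spread by less than 2-fold over the 3. Wt1, the Wilms tumour factor that marks mesothelium (chromosome 2, 105126529 to 105173616, plus strand), spread far more: 420 CPM (391 to 450) in mesothelial-like cells, 74.0 CPM (55.1 to 97.3) in portal fibroblast-like and 4.53 CPM (3.39 to 5.92) in stellate-like cells. The mesothelial-like level was 92.8-fold (70.2 to 125) above the stellate-like one. Stellate-like cells had 53 Wt1 UMIs and 0 UMIs of the 6 mesothelial markers, so other mesothelial RNA was not seen beside them. Kupffer-like cells had 2.19 CPM (1.43 to 3.21) of Wt1, an interval below the stellate-like one. They came from the library of the mesothelial-like cells and had 263 UMIs of the 6 mesothelial markers (22.1 CPM). After thinning 0.563% of stellate-like (0.300 to 0.960) and 0.261% of Kupffer-like cells (0.0957 to 0.566) had a Wt1 UMI, intervals that overlap. The source of these Wt1 UMIs was not tested. Wt1 was seen in 93.8% of mesothelial-like cells (31.9% after thinning, 24.4 to 40.2).

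Meis1, a homeodomain cofactor of HOX proteins, had 88.5 CPM (75.7 to 103) in mesothelial-like and 81.3 CPM (61.4 to 106) in portal fibroblast-like cells, which overlap, and 24.4 CPM (21.7 to 27.4) in stellate-like cells. Its relative Meis2 had 142 CPM (126 to 160) in mesothelial-like cells against 58.5 CPM (54.2 to 63.0) in stellate-like and 53.7 CPM (37.8 to 74.0) in portal fibroblast-like cells. Ebf1, an early B cell factor also known from fat and stromal progenitors, set portal fibroblasts apart from the other mesenchymal classes. It had 578 CPM (522 to 637) in portal fibroblast-like cells, 1.04 CPM (0.125 to 3.74) in mesothelial-like and 0.512 CPM (0.188 to 1.12) in stellate-like cells.

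Set directly against each other, where 23, 25 and 13 members could be compared, stellate-like cells had 13 of 37 members at least 2-fold higher than mesothelial-like cells (18.4% of all genes) and 4 lower (15.9%). Against portal fibroblast-like cells 13 were higher (15.9%) and 6 lower (12%), and mesothelial-like cells had 3 members higher than portal fibroblast-like cells (16.4%) and 3 lower (10.7%). Several members were higher in stellate-like cells in both comparisons, with intervals or lower bounds above equal levels. They were Lhx2, Tcf21, Foxf1, Hand2, Tcf7 and the endothelial factors Gata4, Maf, Erg and Fli1. Lhx2 had 0 UMIs in mesothelial-like cells (at least 241-fold) and Tcf7 had 0 UMIs in portal fibroblast-like cells (at least 4.08-fold), so these folds have no interval. Sox7, Sox17 and Sox18 also passed 2-fold in both, but with 1 or 2 UMIs in portal fibroblast-like cells their folds over these, 2.32 (0.622 to 19.5), 4.06 (0.705 to 163) and 2.68 (0.720 to 22.4), include equal levels. Gata2, counted higher against portal fibroblast-like cells, and Mecom, counted lower, had such intervals too. The sinusoidal endothelial markers were also higher in stellate-like cells, at 846 CPM in sum against 54.9 and 39.2 CPM. Mesothelial-like cells were above portal fibroblast-like cells for Wt1 (5.67-fold, 4.27 to 7.68), Meis2 (2.65-fold, 1.88 to 3.84) and Sox4, an SRY-related factor of progenitors (2.57-fold, 1.72 to 4.01). Portal fibroblast-like cells were higher for Tcf21, Ebf1 and Nr1h3, the oxysterol receptor LXR alpha, at 33.4 against 5.18 CPM. The 17 smooth muscle-like cells of replicate 1, too few for the comparisons, had 286 CPM (200 to 396) of Hand2, 206 CPM (135 to 302) of Foxf1 and 357 CPM (261 to 478) of Ebf1. Their Tcf21 level was 15.9 CPM (1.92 to 57.4), and Lhx2 and Wt1 had 0 UMIs, which allows 23.8 CPM. The Foxf1 interval of these smooth muscle-like cells includes the stellate-like level of 213 CPM, so Foxf1 did not set the 2 apart.

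**Figure D2:**
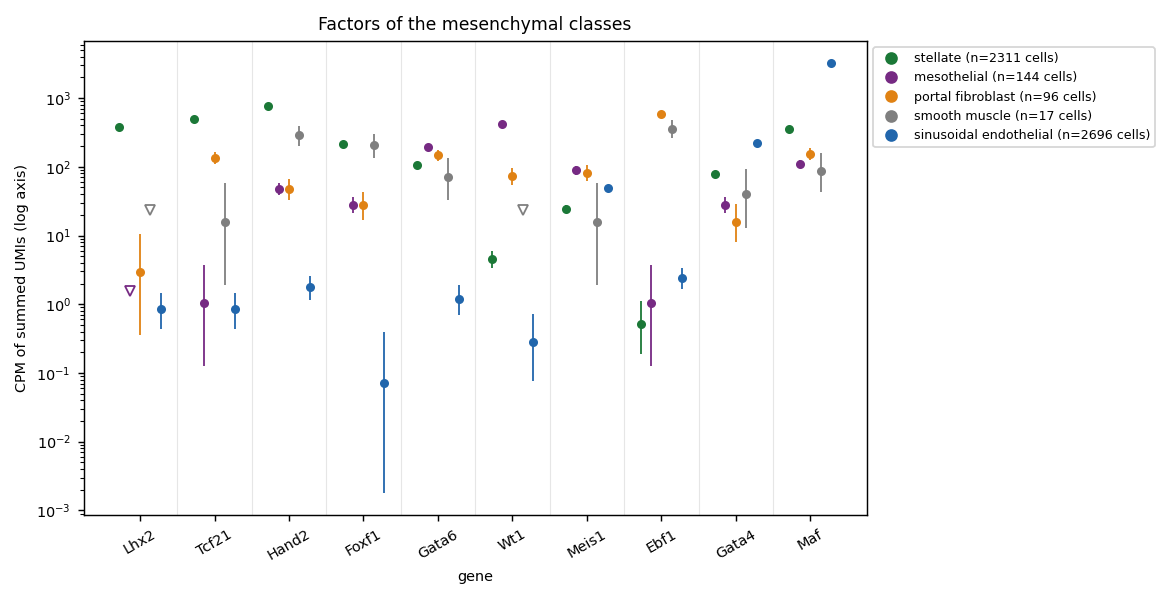
CPM (log axis) of 10 factors in stellate-like, mesothelial-like, portal fibroblast-like, smooth muscle-like and sinusoidal endothelial-like cells. Points are levels, bars are 95% Poisson intervals and open triangles are the limit allowed by a count of 0. Lhx2 stands at 375 CPM in stellate-like cells alone of the 5 classes, Wt1 at 420 CPM in mesothelial-like cells and Ebf1 at 578 CPM in portal fibroblast-like cells.

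Several endothelial factors were also read in stellate-like cells, together with markers of sinusoidal endothelium. The 6 sinusoidal markers, 6 of 6 seen, summed to 846 CPM in stellate-like cells and 12434 CPM in sinusoidal endothelial-like cells, against 54.9 CPM in mesothelial-like and 39.2 CPM in portal fibroblast-like cells. With Pecam1, Cdh5 and Tie1 added, the 9 endothelial markers stood at 3.85% to 12.1% of their sinusoidal level. Sox18, Sox7, Mecom and Sox17 lay in or below that range at 2.81%, 4.53%, 7.26% and 7.47% of their sinusoidal level, and Maf lay in it at 10.9%. Meis2 (12.6%), Erg (16.6%), Fli1 (16.7%), Gata4 (35.1%) and Meis1 (48.9%) lay above it, and Sox4 was as high as in sinusoidal cells (101%). In the 186 stellate-like cells with no UMI of the 9 markers (median 3796.5 UMIs against 5099 in the rest) Maf had 349 CPM (307 to 395) and Gata4, a GATA factor of liver mesenchyme and sinusoids, had 57.3 CPM (41.1 to 77.7). The levels in the other stellate-like cells were 360 CPM and 80.4 CPM. In the same 186 cells Fli1 had 47.5 CPM (32.9 to 66.4), Erg 12.6 CPM (5.75 to 23.9) and Sox18 4.19 CPM (0.865 to 12.3, from 3 UMIs). Lhx2, Tcf21 and Hand2 had 381, 517 and 819 CPM there.

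**Figure D3:**
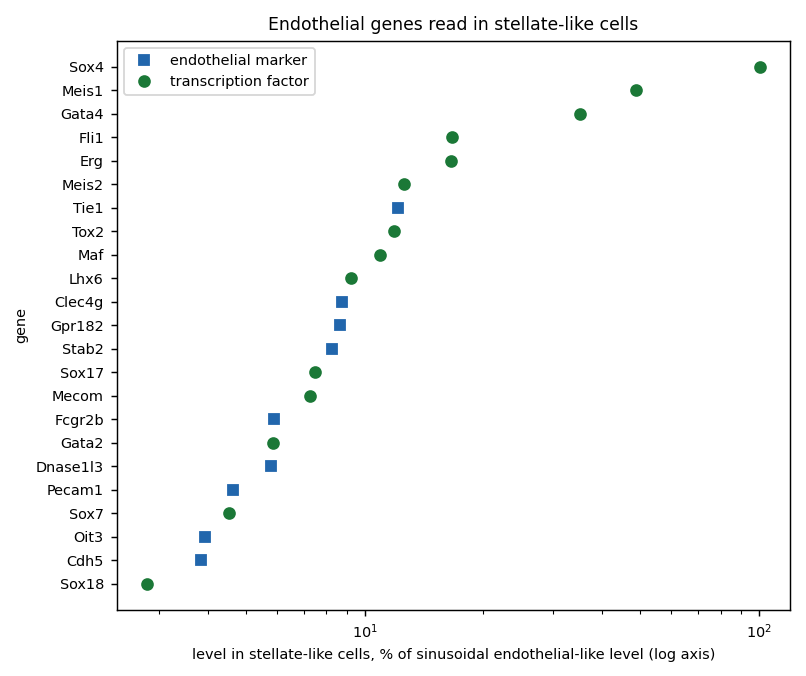
Level of each gene in stellate-like cells as a percentage of its level in sinusoidal endothelial-like cells (log axis), for the 9 endothelial markers (squares) and the factors at 10 CPM or more in sinusoidal cells (circles). The markers span 3.85% to 12.1%, with Sox18 below them and Fli1, Gata4, Meis1 and Sox4 above.

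Tcf7, a T cell factor of the WNT pathway, was highest in T-like cells at 170 CPM (138 to 207) and had 208 UMIs or 17.8 CPM (15.4 to 20.3) in stellate-like cells. The CD3 gene Cd3e, a marker used to gate T-like cells and at 562 CPM in them, had 1.62 CPM in stellate-like cells. A Tcf7 UMI was seen in 8.48% of stellate-like cells (1.95% after thinning, 1.42 to 2.60) and 0.408% of sinusoidal endothelial-like cells. The 19 UMIs of Tcf7 in sinusoidal endothelial-like cells gave 1.34 CPM (0.807 to 2.09).

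Endothelial subtypes shared a larger part of the list. By the same rule, with the 13 classes outside the endothelium as the other side, 13 of 37 members were called in sinusoidal endothelial-like cells (17.6% of all genes), 11 of 37 in central vein endothelial-like cells (14.4%), 16 of 37 in portal and arterial endothelial-like cells (12.7%) and 10 of 37 in lymphatic endothelial-like cells (11.7%). The filter was passed by 35, 35, 37 and 35 members in these subtypes. The 4 subtypes shared 9 of 37: Lhx6, Gata2, Gata4, Sox7, Sox18, Meis2, Maf, Erg and Fli1, where 4.51% of all genes were shared. The call of Maf in portal and arterial cells was close to the limit, at 2.05-fold, and did not hold under 6 alternatives. Lhx6 rested on 4 UMIs in lymphatic and 9 in portal and arterial cells and left the shared set under 4 alternatives. Endothelial factors are part of what the list was made for, so these shares are a description of the list.

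Among the shared factors Erg, an ETS factor that holds endothelial identity, was nearly level between sinusoidal and central vein cells. It had 148 CPM (142 to 155) in sinusoidal, 147 CPM (124 to 172) in central vein, 123 CPM (103 to 145) in portal and arterial and 76.5 CPM (45.3 to 121) in lymphatic endothelial-like cells. Portal and arterial cells were at 0.827 of the sinusoidal level (0.690 to 0.983). Fli1 was highest in portal and arterial cells at 430 CPM (392 to 470), followed by lymphatic cells at 242 CPM (183 to 314) and sinusoidal cells at 233 CPM (225 to 241), which overlap, and by central vein cells at 176 CPM (152 to 203). Gata2, a GATA factor of endothelium and blood, ranged from 51.4 CPM (38.6 to 67.1) in central vein to 93.4 CPM (58.6 to 141) in lymphatic cells, with overlapping intervals. The same gene reached 27 UMIs in the 2 mast- and basophil-like cells, which entered no comparison. Gata4 was as high in central vein cells, 228 CPM (200 to 258), as in sinusoidal cells, 225 CPM (217 to 233), and lower in portal and arterial cells at 120 CPM (101 to 142) and lymphatic cells at 46.7 CPM (23.3 to 83.6, from 11 UMIs). Maf had 3288 CPM (3258 to 3318) in sinusoidal cells, 1750 CPM (1585 to 1927) in lymphatic, 1707 CPM (1629 to 1788) in central vein and 433 CPM (395 to 473) in portal and arterial cells. It was seen in 99.0% of sinusoidal endothelial-like cells (94.2% after thinning, 93.2 to 95.1) and outside endothelium it was highest in Kupffer-like cells at 1046 CPM (1028 to 1065). Meis2 had 502 CPM (462 to 546) in portal and arterial, 465 CPM (454 to 476) in sinusoidal, 408 CPM (371 to 449) in central vein and 255 CPM (194 to 328) in lymphatic cells.

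The SOXF factors Sox7, Sox17 and Sox18, known for overlapping parts in vessel growth, were read in different proportions. Sox18 stood between 229 CPM (201 to 260) in central vein and 352 CPM (318 to 389) in portal and arterial cells, with 340 CPM (269 to 423) in lymphatic and 277 CPM (268 to 286) in sinusoidal cells. Sox7 had 149 CPM (142 to 155) in sinusoidal, 139 CPM (117 to 163) in central vein, 85.1 CPM (68.8 to 104) in portal and arterial and 76.5 CPM (45.3 to 121) in lymphatic cells. Sox17, known as a factor of arterial endothelium (chromosome 1, 4490931 to 4497354, minus strand), had 206 CPM (180 to 234) in portal and arterial, 78.9 CPM (74.3 to 83.7) in sinusoidal and 50.5 CPM (37.8 to 66.0) in central vein cells. In lymphatic cells it had 0 UMIs, which allows 12.7 CPM, and the sinusoidal level was at least 6.19-fold higher. Of 122 portal and arterial cells 28 (23.0%) had UMIs of 3 of 3 SOXF genes, against 318 of 2696 sinusoidal (11.8%), 24 of 162 central vein (14.8%) and 0 of 32 lymphatic cells; median depths were 7005.5, 4899, 6087.5 and 5483 UMIs. After thinning these shares were 0.826%, 0.229%, 0% and 0%, so at equal depth the number of such cells was too small to order them.

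Each of the vein, artery and lymphatic subtypes also held factors above their sinusoidal level, some of them shared between these subtypes. Central vein endothelial-like cells had 3 members at least 2-fold above sinusoidal cells (5.3% of all genes) and 2 below (6.76%), and Lhx6, a LIM homeodomain factor otherwise known from interneurons and palate (chromosome 2, 36081953 to 36105408, minus strand), led them. It had 230 UMIs or 219 CPM (192 to 249) in central vein cells, 17.0 CPM (4.63 to 43.5, from 4 UMIs) in lymphatic, 12.98 CPM (11.2 to 15.0) in sinusoidal and 8.06 CPM (3.69 to 15.3) in portal and arterial cells. The central vein level was 16.9-fold (13.8 to 20.6) above the sinusoidal one, and the other 3 subtypes could not be ordered. A Lhx6 UMI was seen in 59.9% of central vein cells (18.2% after thinning, 12.6 to 25.1) and 4.90% of sinusoidal cells (1.03% after thinning, 0.681 to 1.5), against 0.201% of Kupffer-like cells (median 4106 UMIs). Gata6 had 16.2 CPM (9.43 to 25.9) in central vein cells and 1.20 CPM (0.699 to 1.92) in sinusoidal cells. It was not particular to central vein cells. Portal and arterial cells had 25.1 CPM of Gata6, 20.9-fold (11.0 to 40.7) above sinusoidal cells. Lymphatic cells had 55.2 CPM from 13 UMIs, 46.0-fold (20.6 to 101) above them. The third member higher in central vein than in sinusoidal cells was Spi1, with 8 against 50 UMIs (2.16-fold, 0.884 to 4.59), which includes equal levels.

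Portal and arterial endothelial-like cells had 8 members at least 2-fold above sinusoidal cells (9.12% of all genes) and 2 below (12.7%). Of these Hand2, with 4 against 25 UMIs (2.03-fold higher, 0.514 to 5.88), and Hnf4a, with 1 against 41 UMIs, had intervals that include equal levels. Mecom, a zinc finger factor of arteries and stem cells (chromosome 3, 29951296 to 30548008, minus strand), had 262 CPM (233 to 294) there, 38.8 CPM (35.6 to 42.2) in sinusoidal and 22.8 CPM (14.6 to 34.0) in central vein cells, 6.76-fold (5.85 to 7.81) between the first and the second. Tcf15, a bHLH factor (chromosome 2, 152143561 to 152149097, plus strand), had 152 UMIs or 136 CPM (115 to 160) and, in the other 3 subtypes, 0.706 to 4.25 CPM. It was also read in the 17 smooth muscle-like cells, at 87.3 CPM (43.6 to 156). Nkx2-3, a homeodomain factor of gut and spleen vessels (chromosome 19, 43612325 to 43615892, plus strand), had 137 UMIs or 123 CPM (103 to 145), and 5 UMIs or 0.353 CPM (0.115 to 0.823) in sinusoidal cells. Its UMIs came from 21 of the 122 cells (17.2%), where Tcf15 was seen in 50.0% and Mecom in 68.0% of them. Tox2, an HMG-box factor, had 25.1 CPM (16.7 to 36.2) in portal and arterial and 20.8 CPM (18.5 to 23.3) in sinusoidal cells, which overlap, and 1.90 CPM (0.231 to 6.88) in central vein cells. Portal and arterial cells against central vein cells gave 8 members at least 2-fold higher in the former (7.55% of all genes) and 2 higher in the latter (9.19%), Lhx6 and Maf.

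The stretches before the starts of Lhx6 and Nkx2-3 are shown because these genes marked the central vein class and the portal and arterial class. They are chr2:36105409-36105658 (minus strand) and chr19:43612075-43612324, from RefSeq (GRCm38.p6) as above.
Lhx6: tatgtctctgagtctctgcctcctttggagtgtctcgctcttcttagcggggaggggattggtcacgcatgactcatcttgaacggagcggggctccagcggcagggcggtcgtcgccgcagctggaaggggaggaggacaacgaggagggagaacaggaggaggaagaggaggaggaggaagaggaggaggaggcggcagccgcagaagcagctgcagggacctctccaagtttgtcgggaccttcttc
Nkx2-3: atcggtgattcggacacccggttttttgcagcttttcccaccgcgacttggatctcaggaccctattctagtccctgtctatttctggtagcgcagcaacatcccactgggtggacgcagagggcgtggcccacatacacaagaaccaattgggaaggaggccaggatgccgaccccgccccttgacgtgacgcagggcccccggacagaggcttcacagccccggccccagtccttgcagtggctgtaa
No letters are in capitals, since neither stretch held any of the 5 motifs.

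Lymphatic endothelial-like cells, 32 in number, had 4 members at least 2-fold above sinusoidal cells (8.27% of all genes) and 5 below (12.7%). Prox1, the homeodomain factor that sets lymphatic identity (chromosome 1, 190118035 to 190170714, minus strand), had 81 UMIs or 344 CPM (273 to 428), 128-fold (86.2 to 194) above sinusoidal cells. Ebf1 had 149 CPM (104 to 207) in lymphatic and 66.3 CPM (52.0 to 83.2) in portal and arterial cells against 2.40 CPM (1.66 to 3.35) in sinusoidal cells. Nr1h3 had 63.7 CPM (35.7 to 105) in lymphatic cells and 5.64 CPM (4.48 to 7.03) in sinusoidal cells. The members below were Sox17, Gata4, Meis1, Mecom and Tox2, of which the last 3 each had 1 UMI in lymphatic cells, and the interval of Tox2 includes equal levels. Markers of sinusoidal endothelium summed to 2812 CPM in lymphatic cells and 6783 CPM in central vein cells. In the lymphatic class the 141 UMIs of the marker Clec4g came from 15.6% of the cells and the 55 of Stab2 from 25%. The part of sinusoidal RNA, or of such cells, in the lymphatic levels and the shared calls was not tested.

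**Figure D4:**
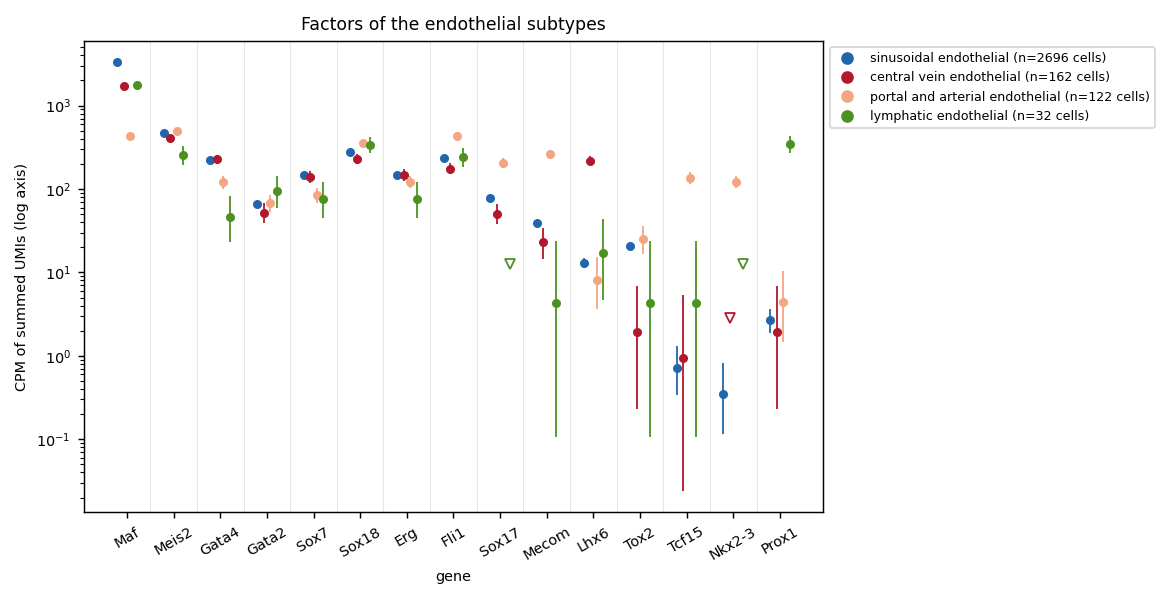
CPM (log axis) of 15 factors in the 4 endothelial subtypes. Points are levels, bars are 95% Poisson intervals and open triangles are the limit allowed by a count of 0. Maf, Meis2, Sox18, Erg and Fli1 are high in each subtype, while Lhx6 (219 CPM, central vein), Tcf15 and Nkx2-3 (136 and 123 CPM, portal and arterial) and Prox1 (344 CPM, lymphatic) each stand out in 1.

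Within stellate-like and sinusoidal endothelial-like cells, the sides of the lobule were set apart by landmark genes outside the list (at least 2 UMIs of one side's landmarks and 0 of the other's). Among stellate-like cells 365 were central and 353 portal, and 18 members could be compared. On the central side 2 were at least 2-fold higher, beside 2.78% of all genes: Thrb, a thyroid hormone receptor, with 21 against 4 UMIs (5.28-fold, 1.78 to 21.2), and Sox7, with 18 against 5 UMIs (3.62-fold, 1.30 to 12.5). On the portal side 2 were, beside 2.27% of all genes: Sox18, with 18 against 7 UMIs (2.56-fold, 1.02 to 7.24), and Nr1h3, with 29 against 14 UMIs (2.06-fold, 1.05 to 4.22). These calls rest on few UMIs, and sinusoidal markers summed to 791 CPM on the central and 885 CPM on the portal side. The leading stellate factors differed less but with far more UMIs: Lhx2 had 418 CPM on the central and 284 CPM on the portal side (1.47-fold, 1.31 to 1.66), Hand2 882 and 661 CPM (1.33-fold, 1.23 to 1.44) and Maf 415 and 274 CPM (1.51-fold, 1.35 to 1.70). Tcf21 (1.02-fold, 0.921 to 1.12) and Foxf1 (1.09-fold, 0.941 to 1.26) had intervals that include equal levels.

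Among sinusoidal endothelial-like cells 224 were central and 586 portal, and 15 members could be compared. Lhx6 was the member higher on the central side (2.89% of all genes were), with 45 UMIs or 50.7 CPM against 0 UMIs, at least 45.9-fold higher. On the portal side 3 were at least 2-fold higher, beside 4.44% of all genes: Mecom, 87.6 against 5.63 CPM (15.6-fold, 6.58 to 48.4), Tox2, 37.2 against 2.25 CPM (16.5-fold, 4.45 to 138) and Meis1, 68.5 against 29.3 CPM (2.34-fold, 1.55 to 3.68). Sox17 was close to the limit at 107 against 54.0 CPM (1.98-fold, 1.46 to 2.75), and Sox18 at 315 against 214 CPM was 1.47-fold (1.26 to 1.73) higher on the portal side. Sox7 went the other way, with 156 CPM on the central and 105 CPM on the portal side (1.49-fold, 1.20 to 1.83). Erg, Fli1 and Gata4 had intervals that include equal levels. Lhx6 was thus high both in central vein cells and on the central side of the sinusoids, and Mecom both in portal and arterial cells and on the portal side. The sinusoidal class held 39.2 CPM of the central vein markers in sum, against 4376 CPM in central vein cells. Portal and arterial markers summed to 973 CPM in it, against 5947 CPM in portal and arterial cells. The part of vein or arterial RNA, or of such cells, in these sides was not tested.

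**Figure D5:**
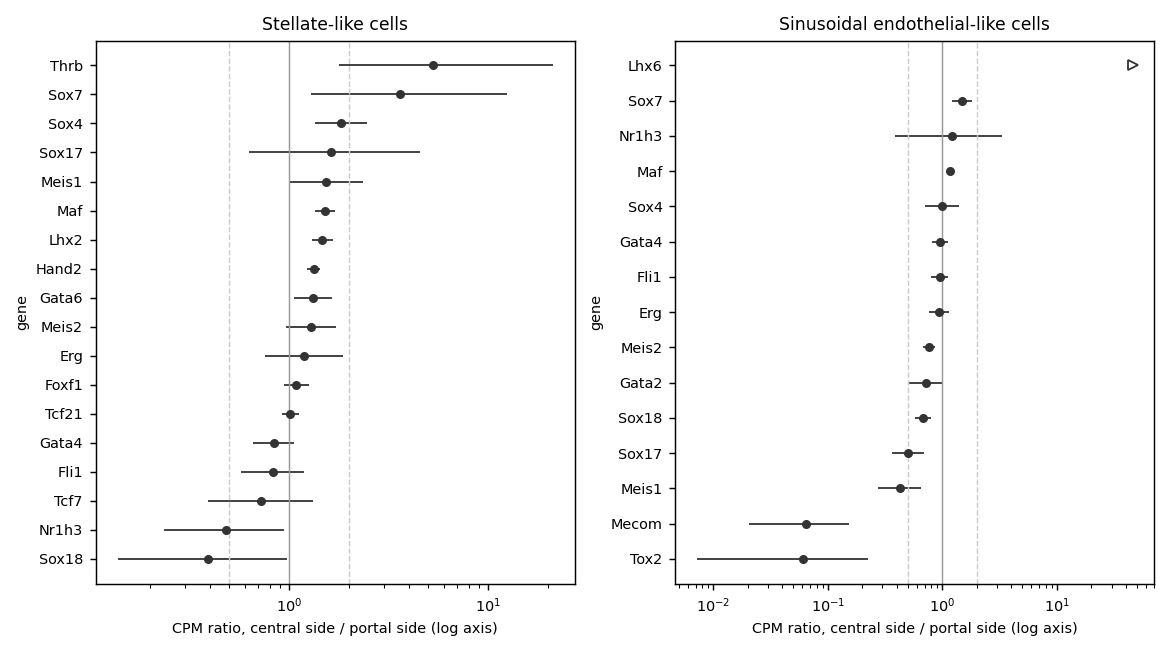
Ratio of CPM between central and portal cells (log axis) for members with at least 20 UMIs, in stellate-like cells (left) and sinusoidal endothelial-like cells (right). Points are ratios, bars 95% intervals, the open triangle a lower bound, and dashed lines mark 2-fold. Lhx6 lies at 45.9-fold or more towards the central side of sinusoidal cells and Mecom and Tox2 at 15.6- and 16.5-fold towards the portal side, while stellate Lhx2, Hand2 and Maf lie between 1.33- and 1.51-fold.

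Between cholangiocyte- and hepatocyte-like cells 12 of the 37 members could be compared. Of these 6 were at least 2-fold higher in cholangiocyte-like cells, a share near the 51.3% of all genes, and 4 were lower, beside 12.2%. Meis1, counted among the higher with 18 against 6 UMIs, had an interval that includes equal levels. Hnf4a, a nuclear receptor that holds hepatocyte identity, had 224 CPM (199 to 252) in hepatocyte-like and 28.3 CPM (20.6 to 38.0) in cholangiocyte-like cells, 7.93-fold (5.76 to 11.2). Cholangiocyte-like cells also held hepatocyte RNA: their Alb level was 3512 CPM where hepatocyte-like cells had 32479 CPM, and the hepatocyte markers, 7 of 7 seen, summed to 390 and 13943 CPM. The part of that RNA in the cholangiocyte levels of Hnf4a and Foxa3 was not tested. Foxa3, a forkhead factor of endoderm, followed it with 41.0 CPM (30.7 to 53.7) and 13.5 CPM (8.36 to 20.6), while its relative Foxa2 was higher in cholangiocyte-like cells at 80.4 CPM (66.9 to 95.8) against 55.0 CPM (42.9 to 69.3). Foxa2 and Foxa3 each had 0 UMIs in stellate-like cells of replicate 2, which allows 0.256 CPM. Sox9, the biliary SRY-related factor, had 584 CPM (547 to 623) in cholangiocyte-like and 10.1 CPM (5.36 to 17.2) in hepatocyte-like cells, and next after cholangiocytes it had 14.5 CPM (6.96 to 26.7) in portal fibroblast-like cells. Sox4 had 606 CPM (568 to 646) in cholangiocyte-like cells and 1 UMI in hepatocyte-like cells. Gata6, at 204 CPM (182 to 228), was as high in cholangiocyte-like as in mesothelial-like cells (1.04-fold, 0.890 to 1.21). Prox1 had 278 CPM (252 to 305) in cholangiocyte-like and 45.7 CPM (34.8 to 58.9) in hepatocyte-like cells, and its lymphatic and cholangiocyte levels did not differ beyond counting error (1.24-fold, 0.964 to 1.57).

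In myeloid classes, Spi1, the ETS factor PU.1 of myeloid cells, had 655 CPM (535 to 794) in monocyte-like, 623 CPM (447 to 845) in neutrophil-like, 387 CPM (376 to 398) in Kupffer-like and 331 CPM (270 to 402) in conventional dendritic-like cells. It was seen in 22 of 22 monocyte-like cells. Nr1h3 had 7830 UMIs or 659 CPM (644 to 674) in Kupffer-like cells, 8.05-fold (4.70 to 15.1) above monocyte-like cells at 81.9 CPM (43.6 to 140) and followed by hepatocyte-like cells at 78.2 CPM. Thrb had 63.8 CPM (59.3 to 68.5) in Kupffer-like and 43.3 CPM (32.7 to 56.3) in hepatocyte-like cells, with 0 UMIs in monocyte-like cells, which allows 18.9 CPM. Against Kupffer-like cells, monocyte-like cells had 1 member at least 2-fold higher (8.7% of all genes), Runx3 at 183 against 1.85 CPM (98.6-fold, 54.7 to 180). They had 3 lower (15.3%), Maf, Nr1h3 and Thrb. The monocyte-like class, of 22 cells, also had Cxcl9, Gpnmb and Trem2 among its leading genes.

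Lymphoid factors were read from few cells: Gata3 was level over its leading classes and Runx3 was spread over several, while Eomes and Pax5 each stood out in 1. Runx3, a RUNX factor of cytotoxic and dendritic cells, had 237 CPM (169 to 322) in plasmacytoid dendritic-like, 235 CPM (152 to 347) in natural killer and ILC1-like, 183 CPM (122 to 262) in monocyte-like, 143 CPM (104 to 192) in conventional dendritic-like and 130 CPM (102 to 163) in T-like cells. Neighbours in this order overlap, while the intervals of the first and the last do not. Gata3, a GATA factor of T cells and innate lymphocytes, had 114 CPM (88.3 to 145) in T-like and 113 CPM (58.3 to 197) in natural killer and ILC1-like cells. T-like cells had 1 member at least 2-fold above natural killer and ILC1-like cells (10.5% of all genes), Tcf7 (2.58-fold, 1.20 to 6.58), and 2 below (9.38%), the T-box factors Eomes and Tbx21. Eomes had 291 CPM (198 to 414) in natural killer and ILC1-like cells and 17.3 CPM (8.30 to 31.8) in T-like cells, and Tbx21 had 207 CPM (130 to 313) and 69.2 CPM (49.5 to 94.3). When the 34 natural killer and ILC1-like cells were parted by markers outside the list, the 16 cells of the natural killer side had 26 Eomes UMIs and the 15 of the ILC1 side had 1, and Maf was reversed with 2 and 18 UMIs. Tbx21 had 12 and 10 UMIs, with overlapping intervals of 253 CPM (130 to 441) and 202 CPM (96.9 to 371). Pax5, the B lineage factor, had 23 UMIs or 341 CPM (216 to 512) in the 25 B-like cells and 0.565 CPM at most in any other compared class. Ebf1 had 1810 CPM (1503 to 2162) there, 3.13-fold (2.54 to 3.85) above portal fibroblast-like cells.

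Companion factors outside the list, in 5 lists of 14 genes, gave the surroundings of the members. Of 14 mesenchymal companions 12 had at least 20 UMIs. Of these 12, 6 were called in stellate-like (16.4% of all genes), 4 in mesothelial-like (15.6%) and 7 in portal fibroblast-like cells (13%). In all 3 classes 1 was called, beside 4.21% of all genes. Tbx20, a T-box factor of heart and cushion mesenchyme, had 178 CPM (170 to 185) in stellate-like and 16.6 CPM in mesothelial-like cells, Osr1 had 258 CPM (236 to 281) in mesothelial-like, 125 CPM in portal fibroblast-like and 0 UMIs in stellate-like cells, and Prrx1 had 218 CPM (184 to 256) in portal fibroblast-like and 2.39 CPM in stellate-like cells. The named companions were picked by the largest ratio of the highest to the median class, so such peaks follow from the choice. Runx2 was highest outside mesenchyme, at 609 CPM (497 to 739) in plasmacytoid dendritic-like cells. Of 14 hepatic and epithelial companions 1 was called in stellate-like cells (16.4% of all genes). It was Nr1h4, the bile acid receptor FXR, at 289 CPM (280 to 299) against 68.9 CPM in hepatocyte-like cells. Onecut2, Ehf and Elf3 were highest in cholangiocyte-like cells at 873, 205 and 99.7 CPM. Of 14 endothelial companions 8 were called in sinusoidal (17.6% of all genes), 7 in central vein (14.4%), 10 in portal and arterial (12.7%) and 10 in lymphatic endothelial-like cells (11.7%). Nr2f2, the vein and lymphatic factor COUP-TFII, was highest in lymphatic cells at 722 CPM (618 to 839) and stood at 543 CPM in stellate-like cells. Foxc2 had 76.5 CPM (45.3 to 121) in lymphatic cells, Bcl6b 94.1 CPM (89.1 to 99.2) in sinusoidal cells and Tal1 82.4 CPM (66.4 to 101) in portal and arterial cells. Among myeloid and lymphoid companions Spic had 210 CPM (202 to 218) in Kupffer-like cells, Batf3 208 CPM (160 to 265) in conventional dendritic-like cells, and Bcl11a and Spib 568 and 426 CPM in plasmacytoid dendritic-like cells. Bcl11b and Lef1 had 286 and 164 CPM in T-like cells and Pou2af1 371 CPM (240 to 548) in B-like cells.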

How the data were processed

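Single-cell RNA of mouse liver was measured in 2 libraries of 1 group. The authors deposited raw UMI counts of 22508 genes, and the submitters' processing notes name Cell Ranger 2.1.1, Seurat 3.1 and GRCm38, with no steps. The number ending each barcode was read as the replicate number, which no label states. The members and lists were chosen with earlier results of these data known.

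Barcodes under 200 detected genes or above 20% mitochondrial UMIs were dropped: 597 in replicate 1 and 0 in replicate 2 (median 4719 and 5012 UMIs kept). A cell passed a gate with at least 3 markers of a class (hepatocytes also 20 marker UMIs). It was assigned to the passed gate with most marker UMIs if these were at least 3 times those of the next passed gate, and otherwise left out (104 and 29 cells), with no doublet caller run. This scoring, and the need for more than 3 UMIs on the higher side of a call, were set after seeing the data. Classes of at least 20 cells were compared, as UMI sums in CPM. Levels have exact Poisson, shares exact binomial and ratios conditional binomial intervals of 95%. For bounds, 3 counts stood in for 0, and a gene at 3 counts or fewer in both classes was given no fold. Shares were thinned to 1000 UMIs per cell. No sample test was possible. Named genes were the 37 members and up to 5 companions per list with the largest ratio of the highest to the median class. The listed companion Foxd1 was not among the genes of the count table. Positions are from GENCODE vM21, promoters from RefSeq (25 of 37 members matched). Computation used Python 3.11.15, numpy 2.4.6, scipy 1.17.1 and pandas 2.3.3, checked on simulated counts. Alternatives in gates, filters, weighting, thinning and landmarks were computed, 3 of them (endothelial-marker-free stellate cells, larger classes, a 10 CPM minimum) added after seeing the data.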

Additional observations from a re-analysis of the deposited data

Results flagged for a closer look

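Cells that passed no gate entered no comparison, and the list was read in them too. Of the 37 factors 23 had more than 3 UMIs in the 322 ungated cells of replicate 1 (912301 UMIs, median 1182 per cell), which is above the limit that a count of 0 allows. Of all 22508 genes 51% had as many, so passing this limit was common and the count is given as a description. Maf led with 416 UMIs or 456 CPM, followed by Spi1 with 266 UMIs or 292 CPM, Runx3 with 117 UMIs or 128 CPM and Nr1h3 with 82 UMIs or 89.9 CPM. Leading genes of these cells included Ccl8, Ccl12, Pf4 and Cbr2. Lhx2 had 2 UMIs there, Foxf1 1 and Tox2 0.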

How the results depend on the processing

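The numbers of members called in the 7 mesenchymal and endothelial classes, and shared by each set, were recomputed under each alternative, and 97 stayed within 1.5 times of the reported number while 2 did not. Without WT replicate 2, where the 8 stellate-like cells of replicate 1 stand for the class, 3 members were called in stellate-like cells in place of 7, and 1, Hand2, was shared by the mesenchymal classes in place of 5. This alternative has few UMIs by construction. Without WT replicate 1 only stellate-like cells remained, and nothing could be compared. The mesenchymal set had 4 or 5 members under the other alternatives: Wt1 left it when cells of several gates were assigned or calls needed 10 CPM, and Meis1 when the other classes needed 50 cells. The endothelial set had 6 to 10 members. With 1 marker more it lost Lhx6, Gata4 and Maf, and Gata4 in lymphatic cells then had a log2 fold of -0.38, the 1 direction that reversed; the cause was not tested. With 1 marker fewer it had 10 members, 8 of them among the reported 9, and lost Maf. Maf was also lost with cells of several gates assigned, with the mean of single-cell CPM, with other classes of at least 50 cells and, together with Lhx6, without WT replicate 2. Lhx6 was also lost with stellate-like cells free of endothelial markers and at a 10 CPM minimum. Of the recomputed folds of called members 513 stayed within the counting interval of the class and 245 moved past it in the same direction. On the stellate axis 1 member was called on the portal side at 1 landmark UMI or more, and 1 on the central side at 3 or more, each in place of 2; the cause was not tested. No paired analysis was possible because the samples form 1 group with no comparison between groups. Depth limits the classes of 22 to 34 cells most, where a member at 0 UMIs may still be present below the limit given.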
